A study of Mus musculus with 5 samples.

Results

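The enzymes described here build the purine and pyrimidine nucleotides of the cell. They were chosen by gene symbol from a list of 10: Cad, Ppat, Paics, Gart, Pfas, Impdh2, Ctps, Umps, Nme1 and Nme2. Of these, 9 were measured and tested among the 12370 gene symbols of the count table, and Impdh2 was not analysed here. The data are RNA-sequencing counts from lenses of mouse embryos at embryonic day 14, with 3 control and 2 N-myc knockout libraries. Control embryos were Cre-negative with loxP sites on both sides of N-myc on both chromosomes (N-mycloxP/loxP). The labels also describe controls with loxP-flanked c-myc, without saying which control libraries, if any, were of that genotype. Knockout embryos had the same N-myc alleles and Mlr10-Cre in the heterozygous state (Mlr10-Cre+/-), a transgene whose crystallin-based promoter drives the Cre recombinase in the lens. No control library had the transgene, so its effects and those of the deletion cannot be told apart. Each library came from a pool of lenses from separately dissected animals, of unstated number.

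Purines are assembled step by step on a ribose phosphate, from its activation by the Prps enzymes through Ppat, Gart, Pfas, Paics, Adsl and Atic to inosine monophosphate, from which adenine and guanine nucleotides branch. Pyrimidines start as a free ring made by Cad and Dhodh, which Umps joins to the ribose and Ctps converts from uridine to cytidine triphosphate. Nme1 and Nme2 are nucleoside diphosphate kinases, which add the last phosphate. Many of these genes are known targets of MYC family transcription factors in growing cells. These factors bind DNA as dimers with Max at the E-box CACGTG. In the lens, epithelial cells divide and fibre cells stop dividing as they differentiate.

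The E-box was searched in RefSeq promoter windows (GRCm38.p6) that run from 250 bases before to 50 bases after each annotated start. CACGTG reads the same on both strands. Windows were found for 8 of the 9 measured genes, and none was found for Pfas. The motif stood in windows of Paics and Nme1, which is 25% of the 8 genes, against 12% of the 9319 tested genes with a window. Nme1 has 2 annotated starts with 1 motif before each. The windows of Cad, Ppat, Gart, Ctps, Umps and Nme2 did not hold these letters. The motif (capitals) is shown with the bases around it, 5′ to 3′ on the strand of the named gene, for Paics and Nme1, the only measured members with a match:
Paics, chr5:76951087-76951116, plus strand: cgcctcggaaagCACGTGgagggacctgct
Nme1, chr11:93968273-93968302, minus strand: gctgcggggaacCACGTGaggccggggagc
Nme1, chr11:93968037-93968066, minus strand: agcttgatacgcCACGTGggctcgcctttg

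The Paics motif began at position -203 from the Paics start and lay inside the first exon of Ppat, which is read from the other strand. The Nme1 motifs began at positions -18 and -29 from its starts. The upstream Nme1 motif lay in an exon of a longer Nme1 transcript and the downstream one in an intron (GENCODE vM21). A match of letters is a description and not evidence of binding.

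The positions of several members limit what their counts mean. Ppat (chromosome 5, 76913249 to 76951578) and Paics (chromosome 5, 76951307 to 76967509) face each other and share 272 exon bases on opposite strands, 6.2% of the Ppat and 8.7% of the Paics exon sequence. Nme1 (chromosome 11, 93956979 to 93968521) and Nme2 (chromosome 11, 93949814 to 93956259) are neighbours on the same strand, joined by an annotated read-through gene, Gm20390. That gene shares 12.5% of the Nme1 and 48.9% of the Nme2 exon bases. The antisense gene Gm15964 covers 1014 bases, or 19.7%, of the Gart exons, and Gm15829 covers 213 bases, or 6.1%, of the Umps exons. No source used here says whether strand was used in counting or how reads in shared exons were assigned, so counts of these 6 genes are uncertain.

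Levels between genes were compared as CPM (counts divided by the TMM-scaled library total and set to a common depth) per kilobase of exon. In the controls Paics was the highest member, at 84.5 CPM per kilobase (74.2 to 90.4 over the 3 libraries). Nme2 followed at 38.6 CPM per kilobase (35.2 to 45.3), then Ctps at 22.9 (22.1 to 23.7), Gart at 19.2 (18.5 to 19.9) and Cad at 16.9 (13.8 to 21.1). The ranges of Gart and Cad overlapped. Nme1 (10.98 to 13.5), Umps (11.3 to 12.9), Pfas (10.8 to 12.8) and Ppat (9.59 to 11.2) formed the low end, where each overlapped its neighbours in the order. In the knockouts Paics and Nme2 still led, at 52.6 and 26.3 CPM per kilobase. Cad came next at 17.3, ahead of Gart at 15.4 and Ctps at 15.3, though the range of Ctps overlapped those of Cad and Gart. Nme1 was the lowest member at 7.19 CPM per kilobase, in a range that overlapped that of Ppat. The order depends on the annotated exon length, which is 3342 bases for Nme1 and 1171 for Nme2. Before division by length the control means of Nme1 and Nme2 were close, at 40.6 and 45.2 CPM.

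The comparison asks how these transcripts differ when N-myc is deleted in the lens. Of the 9 members tested, 5 fell, 0 rose and 4 did not pass the test (edgeR quasi-likelihood test, adjusted p under 0.05 over all 12035 genes tested). DESeq2 also called 5 lower and 0 higher and limma-voom 4 and 0, and at an unadjusted edgeR p under 0.05 there were 6 lower and 0 higher. Of all genes, 17.6% were lower at that unadjusted p, and DESeq2 and limma-voom called 1207 and 910 of the 12035 lower. The 5 were Paics and Gart of purine synthesis, Ctps of pyrimidine synthesis, and the kinases Nme1 and Nme2. Of all genes tested, 8.51% fell and 7.98% rose. The median log2 fold change was -0.44 over the 9 members and 0.00 over all genes. Both knockout libraries lay below every control for 7 of the 9 members, as they did for 27% of all genes. The adjusted p of the 5 genes that fell lay between 0.015 and 0.049. In the lens as a whole, less RNA per cell and fewer cells that contain it cannot be told apart.

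**Figure D1:**
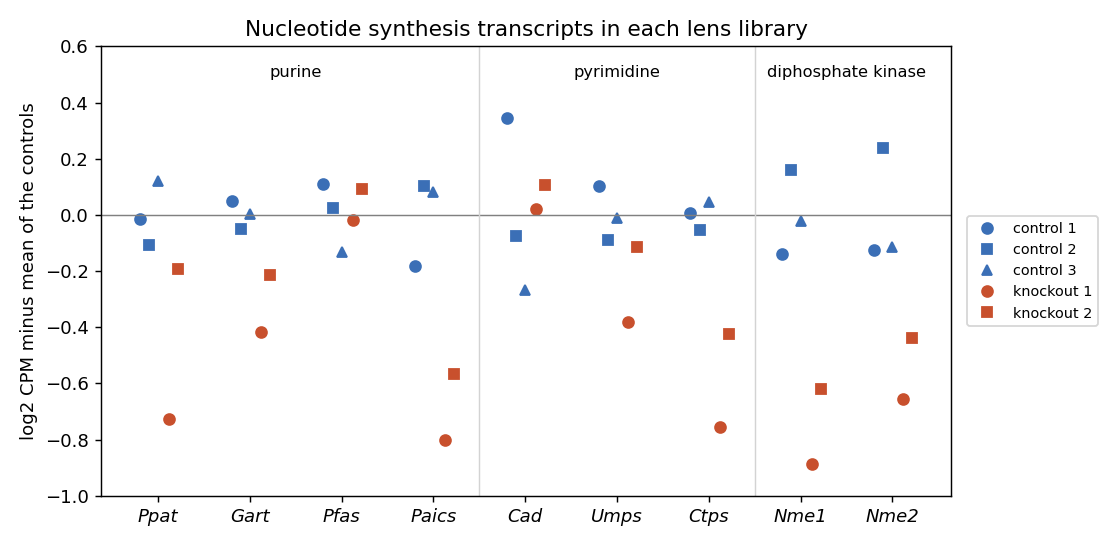
Each point is the log2 CPM of a gene in a library, minus the mean of the 3 controls (blue, controls; orange, knockouts). Both knockout libraries lie under all controls for Ppat, Gart, Paics, Umps, Ctps, Nme1 and Nme2, and among the controls for Pfas and Cad.

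Mycn itself stood at 161.9, 148.4 and 140.2 CPM in controls 1 to 3 and at 57.3 and 81.8 CPM in knockouts 1 and 2, a 2.16-fold fall (log2 fold change -1.11, SE 0.15, edgeR adjusted p = 0.0097). Without control 2 the Mycn fold change was the same size with an adjusted p of 0.056. Of the 2 knockout libraries, knockout 1 was the lower for Mycn and for each of the 9 members. Their mean log2 difference from the controls was -0.51 in knockout 1 and -0.26 in knockout 2, against -0.03 to 0.02 in the controls. With 2 knockout libraries this order is a description, and how often knockout 1 was the lower over all genes was not counted. Knockout 1 also had the highest sums of mesenchyme and skeletal muscle markers of all libraries (2470 and 410 CPM). The part of this RNA in the order was not tested.

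Of the purine enzymes, Paics, which carboxylates a ring intermediate and joins aspartate to it, fell most. It was at 232.9, 283.7 and 279.4 CPM in the controls and at 151.5 and 178.6 CPM in the knockouts. Every knockout value was under every control value, and the fall was 1.61-fold (log2 fold change -0.69, SE 0.12, edgeR adjusted p = 0.015). In raw counts Paics had 2971 to 3739 reads per control library against 2117 and 2490 per knockout library.

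Gart, a protein with several activities in the early steps, was at 102.1, 95.2 and 98.8 CPM in the controls. In the knockouts it was at 73.9 and 85.0 CPM. The control values lay close together, and the fall of 1.24-fold was the smallest of those that passed (log2 fold change -0.31, SE 0.089, edgeR adjusted p = 0.049). It did not pass with limma-voom (log2 fold change -0.32, adjusted p = 0.054), with library totals as the scaling (-0.23, 0.095) or without control 1 (-0.28, 0.075), and its adjusted p ran from 0.023 to 0.29 over 16 alternatives. Next to Gart on the other strand, with starts 554 bases apart, is Son, a splicing factor that stood at 1006 to 1054 CPM in control and at 1083 and 1091 CPM in knockout libraries (log2 fold change 0.08, edgeR adjusted p = 0.52).

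Ppat, the amidotransferase that commits the pathway to purines, was at 45.2, 42.4 and 49.7 CPM in the controls and 27.6 and 40.0 CPM in the knockouts. The knockout libraries were far apart, although both were under the controls. The log2 fold change of -0.44 (SE 0.16, 95% interval -0.81 to -0.07) did not pass (edgeR adjusted p = 0.089). Ppat passed only without knockout 2 (log2 fold change -0.73, adjusted p = 0.0092) among the 16 alternatives, and had -0.19 (adjusted p = 0.45) without knockout 1.

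Pfas, whose step lies between activities of Gart, had overlapping groups. It was at 101.2, 95.3 and 85.5 CPM in the controls and at 92.7 and 100.1 CPM in the knockouts (log2 fold change 0.04, SE 0.095, 95% interval -0.18 to 0.25, edgeR adjusted p = 0.81). The interval does not include the values of Paics or Gart, which have errors of their own. The difference in fold change between Pfas and these genes was not tested.

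Of the pyrimidine enzymes, Ctps, which makes cytidine triphosphate, fell. Its control values were 76.3, 73.2 and 78.5 CPM and its knockout values 45.0 and 56.6 CPM. The controls lay close together and both knockouts were under them, a 1.50-fold fall (log2 fold change -0.58, SE 0.11, edgeR adjusted p = 0.019).

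Umps, which makes uridine monophosphate, was at 45.0, 39.3 and 41.5 CPM in the controls and at 32.1 and 38.7 CPM in the knockouts. Knockout 2 lay just under the lowest control. The log2 fold change was -0.24 (SE 0.12, 95% interval -0.51 to 0.02), and it did not pass (edgeR adjusted p = 0.17), nor in any of the 16 alternatives (lowest adjusted p = 0.074).

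Cad, the large protein that starts pyrimidine synthesis, was the member with the widest controls, at 172.4, 128.7 and 112.7 CPM. Both knockouts, at 137.6 and 146.0 CPM, lay within that range. Its log2 fold change was 0.04 (SE 0.16, 95% interval -0.33 to 0.41, edgeR adjusted p = 0.88), so at this spread neither a fall of 0.33 nor a rise of 0.41 on the log2 scale is outside the interval. Without control 1 it was 0.24 (adjusted p = 0.11).

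Nme1 had the largest fold change of the members. It was at 36.7, 45.2 and 39.8 CPM in the controls and at 21.8 and 26.3 CPM in the knockouts, 1.69-fold lower with no overlap (log2 fold change -0.76, SE 0.13, edgeR adjusted p = 0.016). Nme2 was at 41.2, 53.0 and 41.4 CPM in the controls. In the knockouts it was at 28.5 and 33.1 CPM, also with no overlap and 1.47-fold lower (log2 fold change -0.55, SE 0.14, edgeR adjusted p = 0.038). For both kinases control 2 was the highest library.

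A ratio of raw counts within a library does not depend on the scaling of libraries. For Nme1 to Nme2 it was 0.89, 0.853 and 0.962 in the 3 controls, against 0.766 and 0.792 in the knockout libraries. For Paics to Gart it was 2.28, 2.98 and 2.83, against 2.05 and 2.10. In both ratios the knockouts lay under the controls. How often ratios of other gene pairs lie apart was not counted. Trends on GC content within a library remain in such ratios. Paics (48.1% GC) and Gart (53.0%) differ in that content, as do Nme1 (49.8%) and Nme2 (56.2%). With length and GC trends removed, the log2 fold changes of Paics and Gart were -0.56 and -0.43, against -0.69 and -0.31 as reported. Those of Nme1 and Nme2 were -0.74 and -0.47, against -0.76 and -0.55. The Paics to Ppat ratio was 5.15, 6.69 and 5.62 against 5.50 and 4.47, and the groups overlapped, as did those of Cad to Umps (3.83, 3.27 and 2.71 against 4.28 and 3.78).

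The number of calls depended on which libraries were in the fit, for the members and over all genes. Without control 2, control 3 or knockout 1, 0 of the 9 members passed edgeR's threshold, while 6, 5 and 4 were lower at an unadjusted p under 0.05. Of all genes, 12.6%, 12.5% and 9.76% were lower at that unadjusted p in those fits. At the adjusted threshold 38, 237 and 292 genes passed, against 1984 with every library. Without control 1, 4 members fell, as did 938 of the 12018 genes tested in that fit. Without knockout 2, which left 1 knockout library, the median log2 fold change was -0.67 over the 9 members and -0.002 over all genes. The directions of the 5 genes that fell were the same in each of the 16 alternatives. Without knockout 1 their log2 fold changes were -0.63 for Nme1, -0.57 for Paics, -0.45 for Nme2, -0.42 for Ctps and -0.21 for Gart.

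Libraries differed in RNA of other tissues. Markers of mesenchyme (12 of 12 measured, 0 of them at 0 in all libraries) summed to 616 to 908 CPM in the controls and to 2470 and 785 CPM in knockouts 1 and 2, and 4 of the 12 rose. Skeletal muscle markers (8 of 8) summed to 12.2 to 55.7 CPM in the controls and 410 and 16.6 CPM in the knockouts. Retina markers (10 of 13) summed to 60.4 to 64.5 CPM in the controls and 76.3 and 154 CPM in the knockouts, and 6 of the 10 rose. Immune cell markers (7 of 9) summed to 19.3 to 25.8 CPM in the controls and 35.3 and 38.4 CPM in the knockouts, and of the 7 only Cd68 rose. Red blood cell markers (10 of 11, with the adult globins Hba-a1, Hba-a2 and Hbb-bt, 3 of the 10, at 0 in all libraries) summed to 151 to 186 CPM and to 113 and 121 CPM, and 1 of them, Ermap, fell (56.1 to 66.6 CPM against 16.8 and 18.2 CPM). The other 9 summed to 95.1 to 130 CPM in the controls and to 96.3 and 102 CPM in the knockouts, with overlapping groups. Endothelial markers (8 of 8) overlapped between the groups. Pigment epithelium markers (2 of 6) summed to 38.6 to 48.8 CPM in the controls and 30.1 and 39.2 CPM in the knockouts. Of these, Pmel rose and Mitf fell (log2 fold changes 1.68 and -0.62). Surface ectoderm and cornea markers (3 of 7) summed to 9.8 to 22.2 CPM in the controls and 26.9 and 13.3 CPM in the knockouts. The part of these tissues in the members' differences was not tested. The 14 lens markers summed to 86400 to 108000 CPM in the controls and to 80200 and 94000 CPM in the knockouts, with overlapping groups, and 0 of them were at 0. That sum is mostly crystallin RNA, and 4 of the 14 fell and 1 rose. Bfsp1, a fibre cell filament protein, fell from 1301 to 2045 CPM in the controls to 469 and 658 CPM in the knockouts. Cryab, Mip and Maf fell with log2 fold changes of -0.65, -0.48 and -0.55, and the lens transcription factor Pitx3 rose by 0.54.

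Across all tested genes, which are not independent replicates, log2 fold change and GC content of the longest transcript had a Spearman's rho of 0.46. That content runs from 44.1% (Ppat) to 57.4% (Cad) in the members. With each library's trends on length and GC content removed, the same 5 members passed, and 728 of the 11804 genes tested fell. The log2 fold changes of the 5 members were then -0.74 for Nme1, -0.56 for Paics, -0.47 for Nme2, -0.47 for Ctps and -0.43 for Gart. The values of Cad and Pfas turned from 0.04 each to -0.33 (adjusted p = 0.099) and -0.19 (adjusted p = 0.18), and did not pass. With library totals as the only scaling, 637 genes fell and 1509 rose, against 1024 and 960, and 4 members fell.

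**Figure D2:**
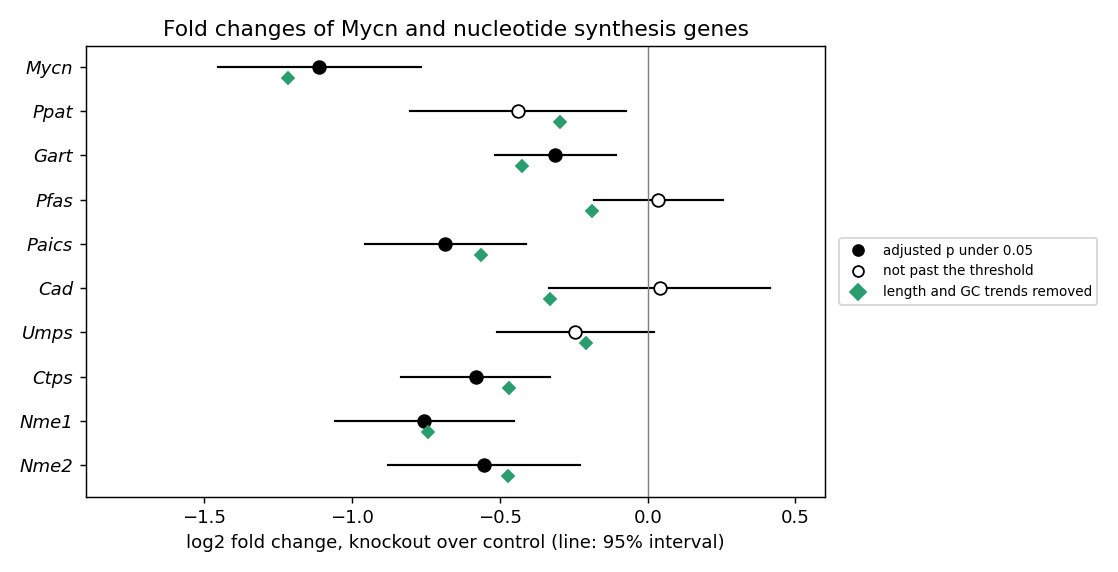
Log2 fold change of knockout over control for Mycn and the 9 members, with the 95% interval as a line and filled circles for an adjusted p under 0.05. Green diamonds give the value with length and GC trends removed, which lies at -0.33 for Cad and at -0.19 for Pfas.

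The other genes of nucleotide metabolism were taken from 7 lists of textbook genes, 65 of 82 of which were measured. Of the 65, 7 fell and 3 rose, against 8.51% and 7.98% of all genes over the whole table. These are 10.8% and 4.62% of the 65, so the share that fell was close to the background. The median log2 fold change was -0.11.

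In purine synthesis, all 10 other genes had a log2 fold change below 0, with a median of -0.25, and 2 fell. Of all genes tested, 49.8% had a log2 fold change below 0. The values of Impdh1, Prpsap1 and Prpsap2 (-0.05, -0.08 and -0.06) were within 1 SE of 0, as was that of Adssl1 (-0.25, SE 0.42). Atic, which completes inosine monophosphate, fell 1.45-fold, from a control mean of 78.7 ± 2.08 CPM (SD, n = 3) to a knockout mean of 54.4 ± 7.64 CPM (SD, n = 2; edgeR adjusted p = 0.019). Prps1, which makes the activated ribose phosphate, fell 1.41-fold from 18.1 ± 1.04 to 12.9 ± 0.0800 CPM (edgeR adjusted p = 0.043). It did not pass with length and GC trends removed (log2 fold change -0.25, adjusted p = 0.21). Adss, Adsl and Gmps also had both knockouts under all controls, with log2 fold changes of -0.34, -0.24 and -0.25, and did not pass. With Atic and Prps1, 5 of the 10 genes had this order, against 27% of all genes tested. Impdh1 is the other form of IMP dehydrogenase.

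Of the 3 other pyrimidine genes 0 passed with edgeR, DESeq2 or limma-voom, and 1 had an unadjusted edgeR p under 0.05. That was Cmpk1, the kinase for cytidine and uridine monophosphate, at -0.56 on the log2 scale (SE 0.20, edgeR adjusted p = 0.092). Control libraries held 335 to 405 reads of it and knockout libraries 205 and 343, and it passed among the alternatives only without knockout 2. Dhodh, the mitochondrial step, had -0.08 (SE 0.16), and Ctps2, the second cytidine triphosphate synthase, 0.20 (SE 0.12), with both its knockouts above all controls. The same order held for 25.5% of all genes tested.

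Of 9 genes for deoxynucleotides, 2 fell. Rrm2b, the small ribonucleotide reductase subunit known as a p53 target, fell 1.82-fold from 23.7 ± 2.03 to 13.01 ± 2.00 CPM (edgeR adjusted p = 0.015). Dctd, a deaminase that feeds thymidylate synthesis, fell 1.47-fold from 17.6 ± 0.793 to 11.9 ± 0.639 CPM (edgeR adjusted p = 0.034), but did not pass with length and GC trends removed (adjusted p = 0.058). The other ribonucleotide reductase subunits, Rrm1 and Rrm2, had log2 fold changes of -0.06 (SE 0.075) and 0.12 (SE 0.095), and thymidylate synthase Tyms had 0.26 (SE 0.11, edgeR adjusted p = 0.13).

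Among 10 other mono- and diphosphate kinases, Ak1, an adenylate kinase, rose 1.55-fold from 17.7 ± 2.48 to 27.4 ± 1.67 CPM (edgeR adjusted p = 0.029). With edgeR and limma-voom 0 of them fell and with DESeq2 1, and 2 with a negative log2 fold change had an unadjusted edgeR p under 0.05, among them Ak4 (-0.41). The diphosphate kinases outside the members, Nme3, Nme4, Nme6 and Nme7, had log2 fold changes of -0.01 to -0.15 or, for Nme7, 0.04.

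In salvage, which reuses bases and nucleosides, 2 of 14 genes fell and 1 rose. Mtap, which recovers adenine from methylthioadenosine, fell 1.43-fold from 120.6 ± 3.78 to 84.4 ± 11.3 CPM (edgeR adjusted p = 0.020). Aprt, which joins adenine to ribose phosphate, fell 1.42-fold from 43.9 ± 6.08 to 31.0 ± 4.21 CPM (edgeR adjusted p = 0.048), and its adjusted p was 0.054 with limma-voom, 0.060 with library totals and 0.054 with upper-quartile scaling. Hprt, its counterpart for hypoxanthine and guanine, was at -0.40 on the log2 scale (SE 0.13, edgeR adjusted p = 0.065). Upp1, uridine phosphorylase, rose 2.41-fold. Control libraries held 90, 145 and 77 reads of it and knockout libraries 270 and 266. The 2 knockouts were almost equal, at 19.2 ± 0.171 CPM against 7.97 ± 2.70 CPM in control (log2 fold change 1.27, SE 0.24, edgeR adjusted p = 0.020). Upp1 passed in 14 of its 16 alternatives, the exceptions being those without control 3 (adjusted p = 0.057) and without knockout 1 (0.067).

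Of the 11 breakdown genes 0 passed with edgeR, DESeq2 or limma-voom, and 1 had an unadjusted p under 0.05. That was Ampd2, an adenosine monophosphate deaminase, at 0.34 on the log2 scale (SE 0.11, adjusted p = 0.062), which was 0.04 with length and GC trends removed and passed only with library totals (0.42, adjusted p = 0.037). The formate list had 8 measured genes, which supply or remove the formyl groups used in purine rings. Of these, Mthfd1l, a mitochondrial formate producer, fell 1.32-fold from 88.3 ± 4.36 to 67.1 ± 5.06 CPM (edgeR adjusted p = 0.028). Aldh1l1, which removes formyl groups from folate, rose 1.56-fold from 10.4 ± 1.14 to 16.2 ± 2.00 CPM (edgeR adjusted p = 0.037), with an adjusted p of 0.14 when length and GC trends were removed. As for the members, 0 of the falls in these lists passed without control 2, control 3 or knockout 1. Of the 3 rises, Upp1 alone passed without control 2 and 0 passed without control 3 or knockout 1. Without control 1, 4 of these genes fell and 2 rose, against 938 and 987 of the 12018 genes tested in that fit.

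**Figure D3:**
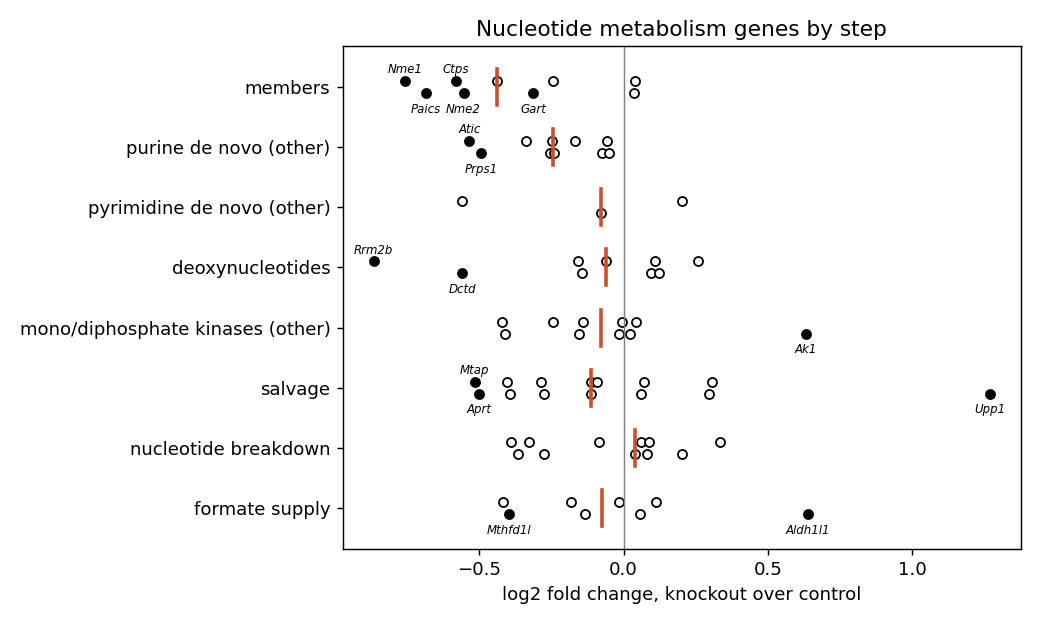
Log2 fold change of knockout over control for the 9 members and the 65 other nucleotide genes by step. Filled circles passed the test at an adjusted p under 0.05 and are named, open circles did not, and orange bars mark each list's median, from -0.44 in the members to 0.04 in breakdown.

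The 5 genes whose level over the 5 libraries was most like the mean of the members were Mettl4, Caprin1, Cisd2, Senp8 and Cct4, at a Euclidean distance of 0.040 to 0.063 between centred log2 CPM profiles. Their log2 fold changes were -0.36, -0.41, -0.37, -0.40 and -0.39, and Caprin1 (edgeR adjusted p = 0.032), Cisd2 (0.046) and Cct4 (0.026) passed the test. These genes were chosen by their levels in the same libraries, so their falls follow from the choice and are a description. With length and GC trends removed, Caprin1 (-0.25, edgeR adjusted p = 0.061), Cisd2 (-0.18, 0.23) and Cct4 (-0.19, 0.089) did not pass.

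**Figure D4:**
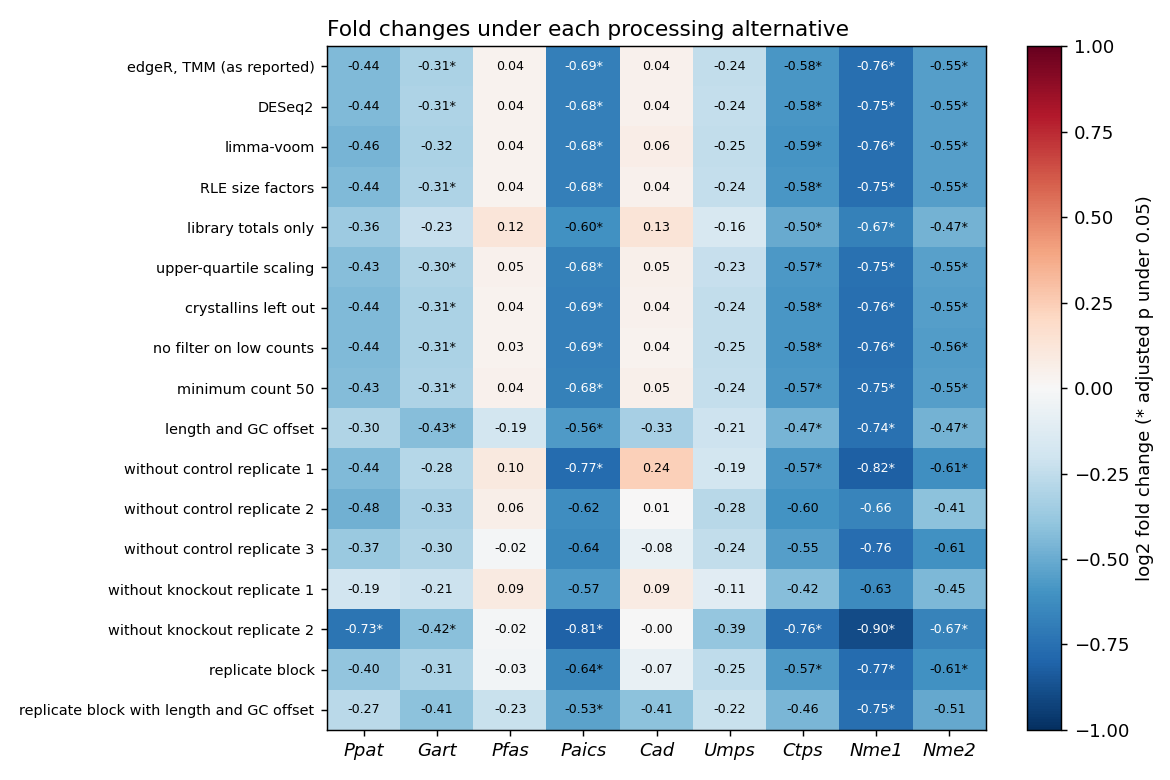
Log2 fold change of each member (columns) under the reported processing and 16 alternatives (rows), with a star for an adjusted p under 0.05. Paics and Nme1 have a star in 13 of the 16 alternatives, and Umps, Pfas and Cad in 0.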

How the data were processed

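RNA of pooled E14 mouse lenses was sequenced. Per the file header, the authors' deposited values are raw counts, 1 row per gene symbol, and they sum to between 13162384 and 13746416 in a library. The submitters' processing notes list DESeq2, Cufflinks 2.2.1, HTSeq 0.6.1, TopHat2 2.0.13, Trim Galore 0.3.7 and the build mm10 without saying what each was used for. Annotation, strand setting and the rule for keeping symbols are unstated in these sources. Groups came from the sample titles.

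Counts were tested in R 4.3.3 with edgeR 4.0.16 (filterByExpr, minimum count 10, 12035 genes kept, TMM scaling, glmQLFit and glmQLFTest without covariates, Benjamini-Hochberg over all genes). SE is the log2 fold change over the square root of F, and 95% intervals use the fit's degrees of freedom. Alternatives used DESeq2 1.42.0, limma 3.58.1, other scalings and filters, an offset for length and GC content (loess, span 0.3), a replicate block, and each library left out. The fit was tested on simulated data. No pair of libraries agreed within sampling noise (chi-square over degrees of freedom 9.98 to 23.4), and p-values measure the spread between pools, which may be partly technical. Positions, exons and GC content are from GENCODE vM21 (GRCm38), with 98.1% of tested genes matched, and promoters are from RefSeq (GRCm38.p6). The members and lists were chosen with earlier results of these data known. Named were all members, Mycn, up to 6 called genes per list (otherwise the gene with the smallest p), neighbours of members and the 5 genes nearest in profile. Other genes were named after their values were seen. Values of 1 gene of the other pathway lists are not reported here.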

Additional observations from a re-analysis of the deposited data

How the results depend on the processing

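Of the members, 5 fell with all libraries, 4 to 5 under each single change of tool, scaling or filter or with the length and GC offset, and 0 to 6 when each library was left out. With library totals as the scaling, 637 genes fell and 1509 rose (1024 and 960 as reported), and 4 of the other pathway genes fell (7 as reported). With the length and GC offset 728 genes fell and 471 rose. Leaving out each library gave 17 to 1291 lower and 21 to 1427 higher genes, 0 to 11 lower and 0 to 2 higher pathway genes.

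The replicate numbers 1 and 2 occur in both groups, but nothing ties same-numbered pools to each other, and their deviations did not correlate (r = -0.056 across genes, 2 pairs). With the replicate block 522 genes fell, 474 rose and 4 members fell. With the block and the offset together 247 fell, 137 rose, 2 members (Paics and Nme1) fell, and 1 pathway gene fell and 1 rose.

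Cad reversed with the offset (-0.33), the replicate block (-0.072) and both (-0.41), and ran from -0.076 to 0.24 over left-out libraries. Pfas reversed likewise (-0.19, -0.028 and -0.23) and ran from -0.021 to 0.097. Neither passed anywhere, and the cause was not tested. With 2 knockout pools, spread between pools rather than counting error (305 to 3739 counts per member and library) limits precision.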

Other observations

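Among tested genes with a promoter window, CACGTG stood in the windows of 127 of 809 genes that fell (15.7%) and of 55 of 711 that rose (7.74%), against 1121 of 9319 (12%) of all. Among the other nucleotide genes it stood in the windows of 5 of 61 (8.2%), namely Atic, which fell, and Tyms, Dtymk, Ak4 and Nt5c2, which did not pass the test. These shares are descriptions with no test.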
